A study of Homo sapiens with 24 samples.

Results

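Ribosome biogenesis and nucleolar genes were followed over 24 microarrays of RT112 cells, an established line of human bladder cancer. The list held 40 genes of this function and was chosen with earlier results of these data known. Of the 40 genes, 34 were measured among the 19775 genes of the arrays. Each gene was represented by its probe set with the highest mean level. NOP56, DKC1, BOP1 and PPAN lie only on probe sets that the annotation assigns to several genes (small nucleolar RNAs and microRNAs of the same locus, or a readthrough transcript), and GNL3 and DDX18 had no probe set in the annotation used. These 6 genes have no values below. For the other 34 no filter on low levels was applied.

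Ribosomes are built in the nucleolus, where RNA polymerase I transcribes a long precursor of the ribosomal RNAs. Small nucleolar ribonucleoproteins guide its chemical modification, and a large assembly called the small subunit processome folds and cleaves it, while separate sets of factors mature the large and small subunits before export to the cytoplasm. Growing cells spend much of their energy on this work, and many of its genes are known targets of the transcription factor MYC.

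The study was designed to find genes regulated by FGFR3, a growth factor receptor with tyrosine kinase activity that is frequently mutated in bladder tumours. RT112 cells, which are known to carry a fusion of FGFR3 with TACC3, were transduced with short hairpin RNAs switched on by doxycycline. A hairpin against EGFP served as the control line, and hairpins named 2-4, 4-1 and 6-16 against FGFR3 made 3 further lines. All 4 lines were kept in medium with 1% serum for 48 h, either without doxycycline or with 1 µg/ml of it, which gave 8 labelled groups of 3 arrays. The labels do not say whether arrays of a group came from separate cultures, so p-values measure only the spread between these arrays.

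The levels of the targeted gene did not follow the labels. FGFR3, on its brighter probe set, read 12.04, 11.85 and 11.42 without doxycycline and 12.08, 11.34 and 12.34 with it in the 2-4 line on the log2 scale. Its fitted changes with doxycycline were 0.16 ± 0.31 (SE) in the EGFP line and 0.15 ± 0.31, -0.24 ± 0.31 and 0.42 ± 0.31 in the 2-4, 4-1 and 6-16 lines, and limma called none of them (Benjamini-Hochberg adjusted p from 0.76 to 1). By correlation over all genes, the nearest other array had the same label for 0 of the 24 arrays. TACC3 read 10.49 to 11.43 on 9 arrays, with 3 of them at 10.49 to 10.79 and the others from 11.31, and 11.82 to 12.62 on the other 15. The nearest array lay on the same side of 11.6 for 24 of 24. Of the 9 arrays with low TACC3, 5 were labelled without and 4 with doxycycline, 3 were labelled as the EGFP line, and 7 of the 8 labelled groups had arrays on both sides. The dimmer FGFR3 probe set read 8.71 to 9.88 on the 9 arrays and 10.34 to 11.20 on the 15. Results by label are therefore given for arrays as labelled. Values are also given on arrays below and above a TACC3 level of 11.6, which is a description with no test, since a measured level and not a label sorts the arrays there. That level, like the list, was chosen with earlier results of these data known.

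By label, no member passed the test for a change with doxycycline. In the limma model of all 24 arrays, 0 of 34 members had an adjusted p under 0.05 (Benjamini-Hochberg over all genes) in the EGFP, 2-4, 4-1 or 6-16 line, and the share of all genes called was 0% in each. The same held for the mean change of the 3 FGFR3 lines minus the change of the EGFP line, and for the F-test of differences among the FGFR3 lines. At an unadjusted limma p under 0.05 the members counted 1, 0, 0 and 0 in the 4 lines, where 2.55%, 2.46%, 1.13% and 7.78% of all genes did. They counted 0 and 0 in the comparison with the EGFP line and in the F-test, where 2.16% and 3.22% of all genes did. The 1 member was RRP12, a late small-subunit factor named here after its values were seen, with a fitted difference of 0.26 ± 0.12 (SE) in the EGFP line and a limma adjusted p of 0.975. With array weights limma called 1291 genes in the 6-16 line, of which 0 were members. With the same weights 19 members passed the unadjusted limma threshold in the EGFP line and 12 in the comparison of the FGFR3 lines with it, and 0 passed after adjustment. The share of all genes that passed the unadjusted threshold with weights was not computed, so these 2 counts have no background to be read against.

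The members' median change with doxycycline was 0.14 for the EGFP hairpin, -0.0049 for 2-4, 0.095 for 4-1 and -0.064 for 6-16 on the log2 scale. Over all genes these medians were 0.023, -0.0052, -0.0078 and 0.028. The number of members with a change below 0 was 2, 19, 1 and 26 of 34. Of all genes 41.6%, 51.8%, 53.7% and 41% were below 0. Of the arrays with low TACC3, the EGFP and 4-1 lines each held 2 without and 1 with doxycycline. The 2-4 line held 1 and 1, and the 6-16 line 0 and 1. The part of these arrays in the members' medians and counts was not tested. In the EGFP line the median kept its sign but not its size. It was 0.078 when the untreated replicate 3 was left out, 0.044, 0.086 and 0.267 when the treated replicates 1, 2 and 3 were left out in turn, and 0.28 with array weights. Single arrays turned the sign of the 3 other medians. In the 2-4 line the median became 0.006 and 0.036 when the untreated replicates 1 and 3 were left out in turn, and 0.12 when the treated replicate 2 was. For hairpin 4-1 the value turned to -0.017 when replicate 2 lacking doxycycline was left out, and for 6-16 to 0.002 when the treated replicate 2 was. Centring each array turned the 2-4 median to 0.011, and array weights turned that of the 6-16 line to 0.0049. The difference between the FGFR3 lines' mean change and the EGFP change was below 0 for 29 of 34 members and 56.2% of all genes. It had a median of -0.13 over members, against -0.017 over all genes. This median was -0.215 and -0.063 when the untreated EGFP replicates 2 and 3 were left out in turn, and -0.031, -0.084 and -0.267 for the treated EGFP replicates 1, 2 and 3. It was -0.083 when the treated replicate 2 of 2-4 was left out, -0.086 when the untreated replicate 3 of 4-1 was, and -0.24 with array weights. The comparison shares the EGFP arrays with the EGFP comparison and is not separate evidence.

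Among single members, the largest fitted differences in the EGFP line were those of MRTO4, which acts in large-subunit assembly, of FBL (fibrillarin), the methyltransferase of box C/D particles, and of UTP18, a component of the processome. MRTO4 read 9.21, 9.37 and 8.69 without doxycycline and 9.60, 9.72 and 8.90 with it, a difference of 0.32 ± 0.25 (SE). FBL stood at 0.31 ± 0.17 and UTP18 at 0.30 ± 0.22, all with a limma adjusted p of 0.975. In each of the MRTO4 groups 1 array lay far below the others, so the groups overlapped.

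In the 6-16 line the largest values were those of NOP16, a large-subunit factor, at -0.24 ± 0.22 (SE), DDX21, an RNA helicase of the nucleolus, at -0.21 ± 0.24, and NOP58, a core protein of box C/D particles, at -0.18 ± 0.20. Their limma adjusted p was 0.809, 0.851 and 0.838. NOP16 read 10.76, 10.46 and 10.73 without doxycycline and 10.56, 10.17 and 10.50 with it, so the ranges of the groups overlapped. In the 2-4 line RRS1, a regulator of ribosome synthesis in large-subunit assembly, DDX21 and NOP16 had the largest values at -0.17 ± 0.23, -0.13 ± 0.24 and -0.13 ± 0.22, with a limma adjusted p of 0.999. Without replicate 2 of the doxycycline arrays these 3 genes stood at 0.048, 0.079 and 0.049. In the 4-1 line the largest were DDX21 at 0.19 ± 0.24, NOP16 at 0.18 ± 0.22 and GAR1, a box H/ACA core protein, at 0.17 ± 0.12, with a limma adjusted p of 1, and DDX21 stood at -0.045 when the untreated replicate 2 was left out. For the FGFR3 lines minus the EGFP line they were NOP16 and UTP18 at -0.27 ± 0.25 each and BYSL at -0.26 ± 0.23, also with a limma adjusted p of 1.

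The labelled groups held 22.7% of the variance over the arrays in the median member, and 26.4% in the median gene. Means of 3 arrays hold some of the variance under any labels, and the share to be had from arbitrary labels was not computed. The median SD of a member within a labelled group was 0.188, beside 0.18 over all 24 arrays, while the median gene had an SD of 0.125 over the arrays. To see all members at once, each array was given a summary, the median over members of the log2 level minus the gene's own mean. In the EGFP group without doxycycline it was -0.143 ± 0.166 (SD, n = 3), and in the EGFP group with doxycycline -0.029 ± 0.248. The lowest SD of the 8 groups was 0.027, in the 6-16 group without doxycycline, the 1 group whose arrays all lay above the TACC3 level.

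**Figure D1:**
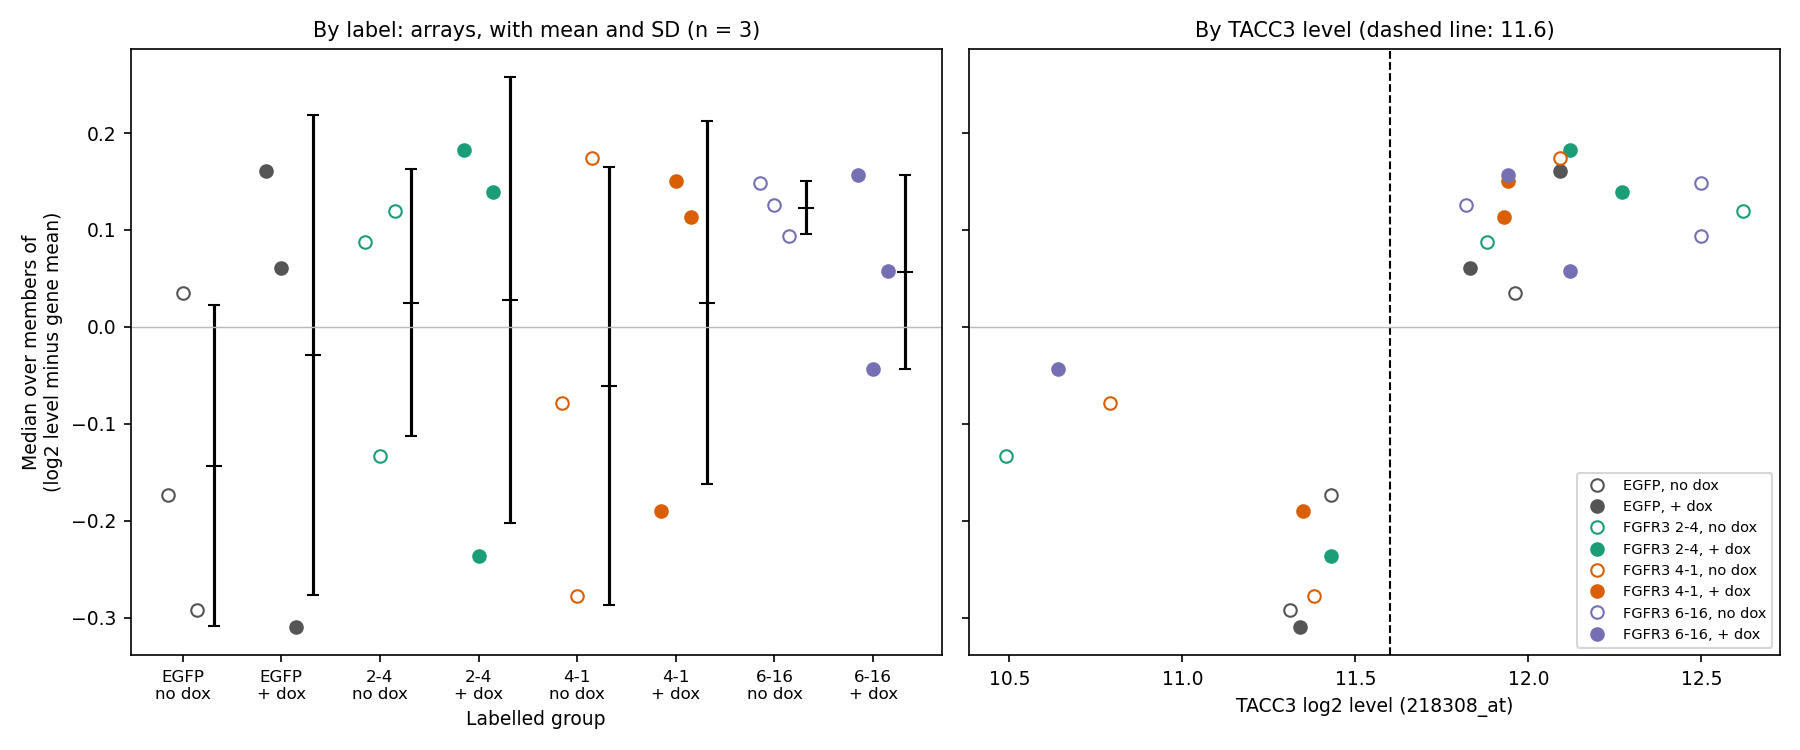
Member summary of each array (median over 34 members of the log2 level minus the gene mean) by labelled group, with the mean and SD of 3 arrays (left), and against the log2 level of TACC3 (right), where the dashed line is 11.6 and open and filled symbols are arrays without and with doxycycline. The 9 arrays left of the line lie between -0.31 and -0.043 and the 15 right of it between 0.035 and 0.182, while the labelled groups overlap.

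On the arrays with low TACC3 nearly all members were lower. The member summary was -0.31 to -0.043 (median -0.19) on the 9 arrays below the level and 0.035 to 0.182 (median 0.126) on the 15 above it, so the sides did not overlap. The median on the arrays below was under that on the arrays above for 33 of 34 members, and the median of these differences was -0.32 on the log2 scale against -0.008 over all genes. For 14 of 34 members every array below was lower than every array above, which was so for 3.09% of all genes. With the dividing level 0.2 lower, which put 2 of the 9 arrays on the upper side, the count was 0 members and 0.212% of genes. At 11.6 the count of members higher on every array below was 0, against 2.9% of genes. In these bulk samples fewer cells of a type and less RNA per cell cannot be told apart.

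**Figure D2:**
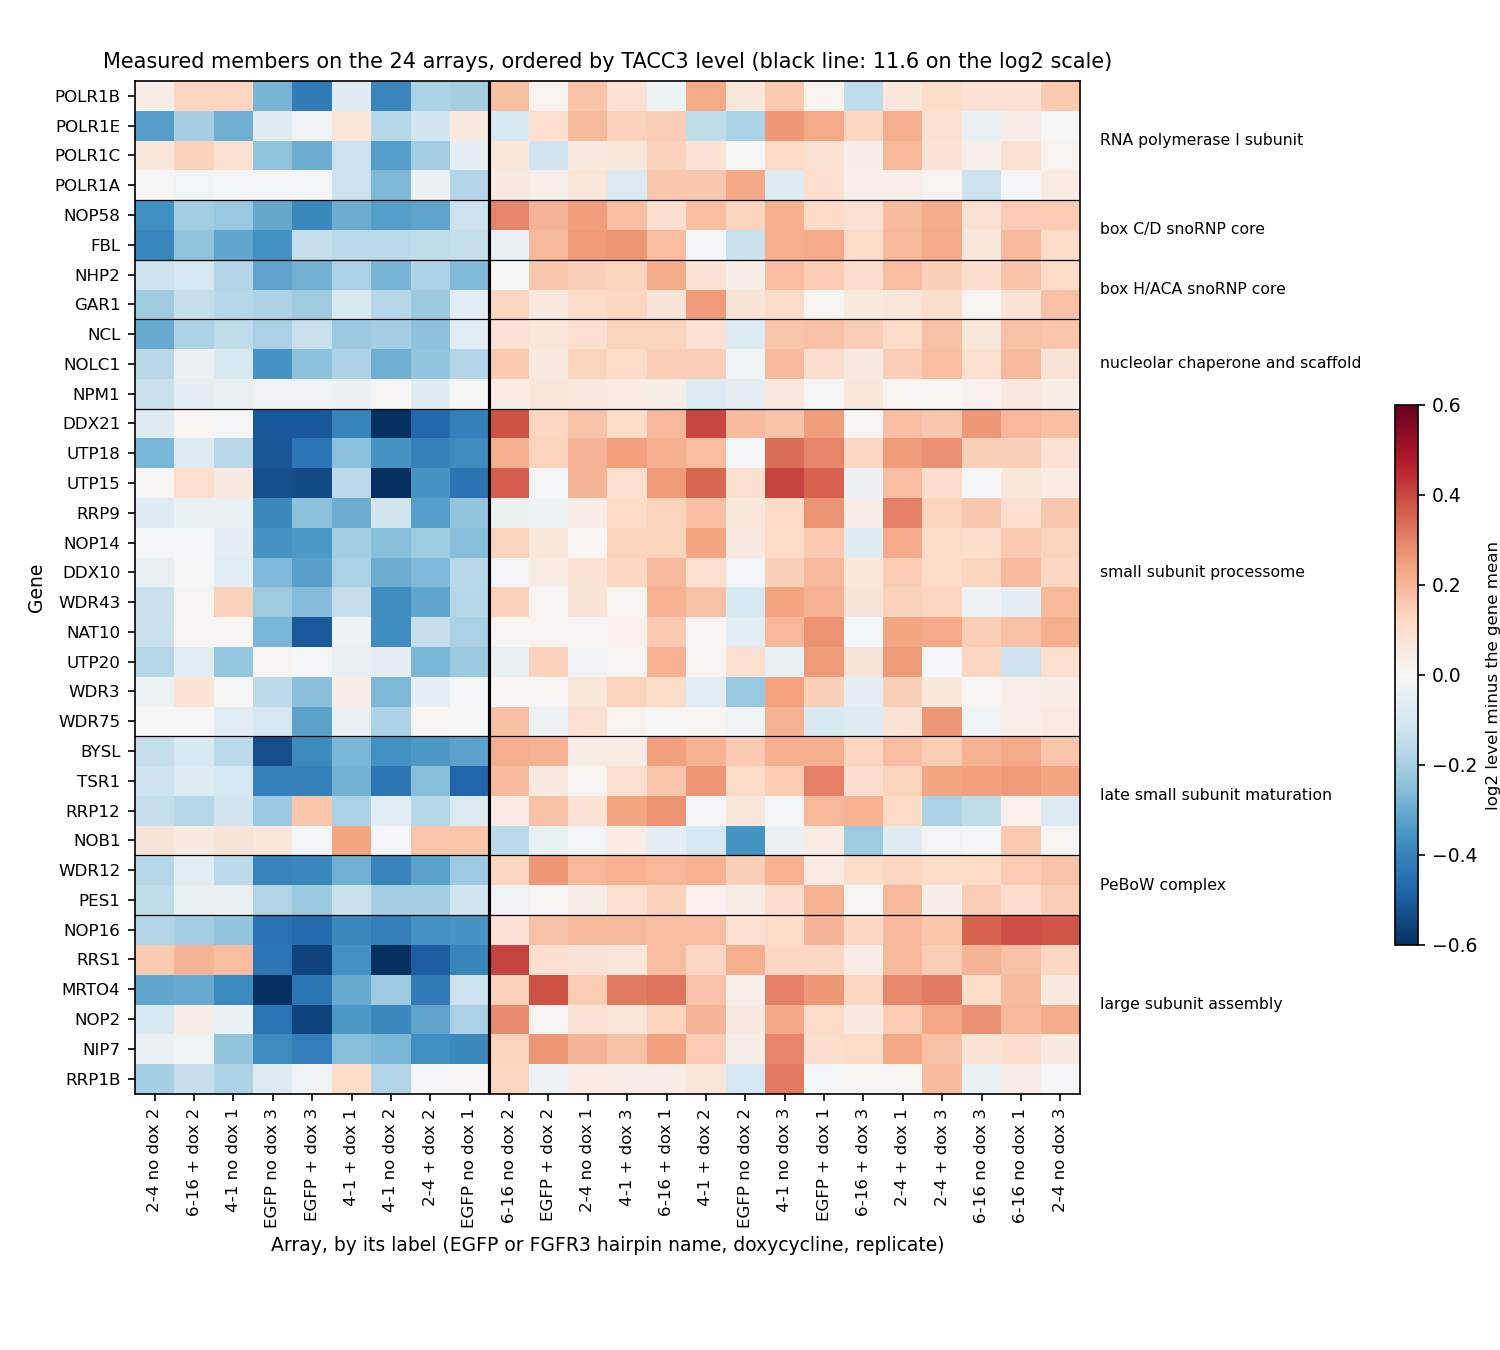
Log2 level of the 34 members minus each gene's mean over 24 arrays, with arrays ordered by TACC3 level, genes grouped by role, and colours that saturate at the ends of the scale. Most genes are blue on the 9 arrays left of the black line at 11.6 and red on the 15 right of it, and on the leftmost 3 arrays RRS1 is red.

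The 4 measured subunits of RNA polymerase I differed by -0.28 to -0.052, and 0 of the 4 separated the arrays. Of all genes 3.09% were lower and 2.9% higher without overlap. POLR1B, the catalytic partner of the largest subunit, read 8.38 to 8.93 (median 8.61) on the arrays below and 8.65 to 9.03 (median 8.89) on those above, a difference of medians of -0.28. POLR1E read 8.29 to 8.69 (median 8.51) and 8.43 to 8.88 (median 8.72), a difference of -0.21. For both genes the sides overlapped over much of their range.

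The core proteins of the small nucleolar particles separated the arrays in 4 of 4 cases, where 3.09% of all genes were lower without overlap. NOP58 read 11.04 to 11.30 (median 11.12) below and 11.52 to 11.72 (median 11.61) above. FBL read 11.49 to 11.74 (median 11.72) and 11.75 to 12.15 (median 12.08). The gap between the sides was wide for NOP58 and nearly nil for FBL, and the differences of medians were -0.49 and -0.36. In the box H/ACA particles, which guide the conversion of uridine to pseudouridine, NHP2 read 12.42 to 12.63 (median 12.54) below and 12.74 to 12.96 (median 12.88) above. GAR1 read 9.64 to 9.80 (median 9.69) and 9.88 to 10.12 (median 9.95). These differences were -0.35 and -0.26, and every array below lay under all arrays above in both genes.

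Among the nucleolar chaperones and scaffolds, NOLC1, a phosphoprotein that binds small nucleolar particles, read 11.20 to 11.52 (median 11.37) below and 11.53 to 11.75 (median 11.69) above, a difference of -0.32 with almost no gap between the sides. Its other 2 probe sets differed by -0.49 and -0.44. NCL (nucleolin), an abundant RNA-binding protein of the nucleolus, read 12.37 to 12.61 (median 12.48) and 12.59 to 12.85 (median 12.81), with 8 of 9 arrays below under every array above. The dimmer probe set of NCL differed by -0.002. NPM1 (nucleophosmin), a histone and ribosome chaperone named here after its values were seen, differed by -0.07 on the probe set used and by -0.23 and -0.33 on its other 2, of which the last separated the sides. The probe set used had the highest mean level of all members, 13.66, where the brightest value on any array was 14.71.

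The small subunit processome held the largest difference among the members. DDX21 read 10.50 to 11.13 (median 10.71) on the arrays below and 11.13 to 11.52 (median 11.30) on those above, a difference of -0.59, and -0.70 on its other probe set. The highest array below and the lowest above differed only beyond the second decimal. UTP18 read 10.21 to 10.65 (median 10.37) and 10.72 to 11.06 (median 10.93), a difference of -0.56. Its dimmer probe set differed by -0.03 and overlapped. Of 11 processome members DDX21 and UTP18 separated the arrays (18.2%), where 3.09% of all genes were lower without overlap. All 11 had a difference below 0, as 10602 of all 19775 genes did, with a median of -0.32 and the smallest at -0.06.

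The late small-subunit factors were not alike. BYSL (bystin), which acts in late maturation of the small subunit, read 8.56 to 8.995 (median 8.77) below and 9.14 to 9.34 (median 9.30) above, a difference of -0.53. TSR1, a factor of the precursor small subunit, read 7.73 to 8.13 (median 7.92) and 8.22 to 8.51 (median 8.37), a difference of -0.45. Both separated the arrays on the probe set used, while the sides overlapped on the 3 dimmer probe sets of TSR1. NOB1, the endonuclease that makes the final cut of the small-subunit RNA, was the 1 member with a higher median on the arrays below, and it is named for that. It read 10.35 to 10.59 (median 10.43) below and 10.001 to 10.51 (median 10.32) above, and its sides overlapped.

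In the PeBoW complex, which is needed to mature the large-subunit RNA, both measured proteins separated the arrays. Of all genes 3.09% were lower without overlap. WDR12 read 9.89 to 10.22 (median 9.999) below and 10.34 to 10.55 (median 10.44) above, a difference of -0.44. PES1 (pescadillo) read 9.53 to 9.71 (median 9.60) and 9.73 to 9.96 (median 9.85), a difference of -0.25. The gap was narrow for PES1. On the dimmer probe sets of WDR12 and PES1 the sides overlapped.

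Of 6 other large-subunit factors, NOP16, NIP7 and MRTO4 separated the arrays, where 3.09% of all genes were lower without overlap. NOP16 read 9.91 to 10.20 (median 10.01) below and 10.46 to 10.76 (median 10.56) above, a difference of -0.55. MRTO4 read 8.69 to 9.21 (median 9.03) and 9.37 to 9.72 (median 9.53), a difference of -0.50. Both had a clear gap between the sides on the probe set used. Other NOP16 probe sets differed by -0.62, which separated the sides, and by -0.08 and -0.06, which overlapped. The dimmer probe set of MRTO4 differed by -0.33 and overlapped. NIP7, an RNA-binding factor, read 9.55 to 9.94 (median 9.69) and 10.002 to 10.26 (median 10.12), a difference of -0.43, and its other probe set also separated the sides. RRS1 had a difference of -0.53 but overlapped, at 9.44 to 10.27 (median 9.67) below and 10.11 to 10.47 (median 10.19) above. On 6 of the 9 arrays below RRS1 was under every array above, and on the other 3 it lay within their range.

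**Figure D3:**
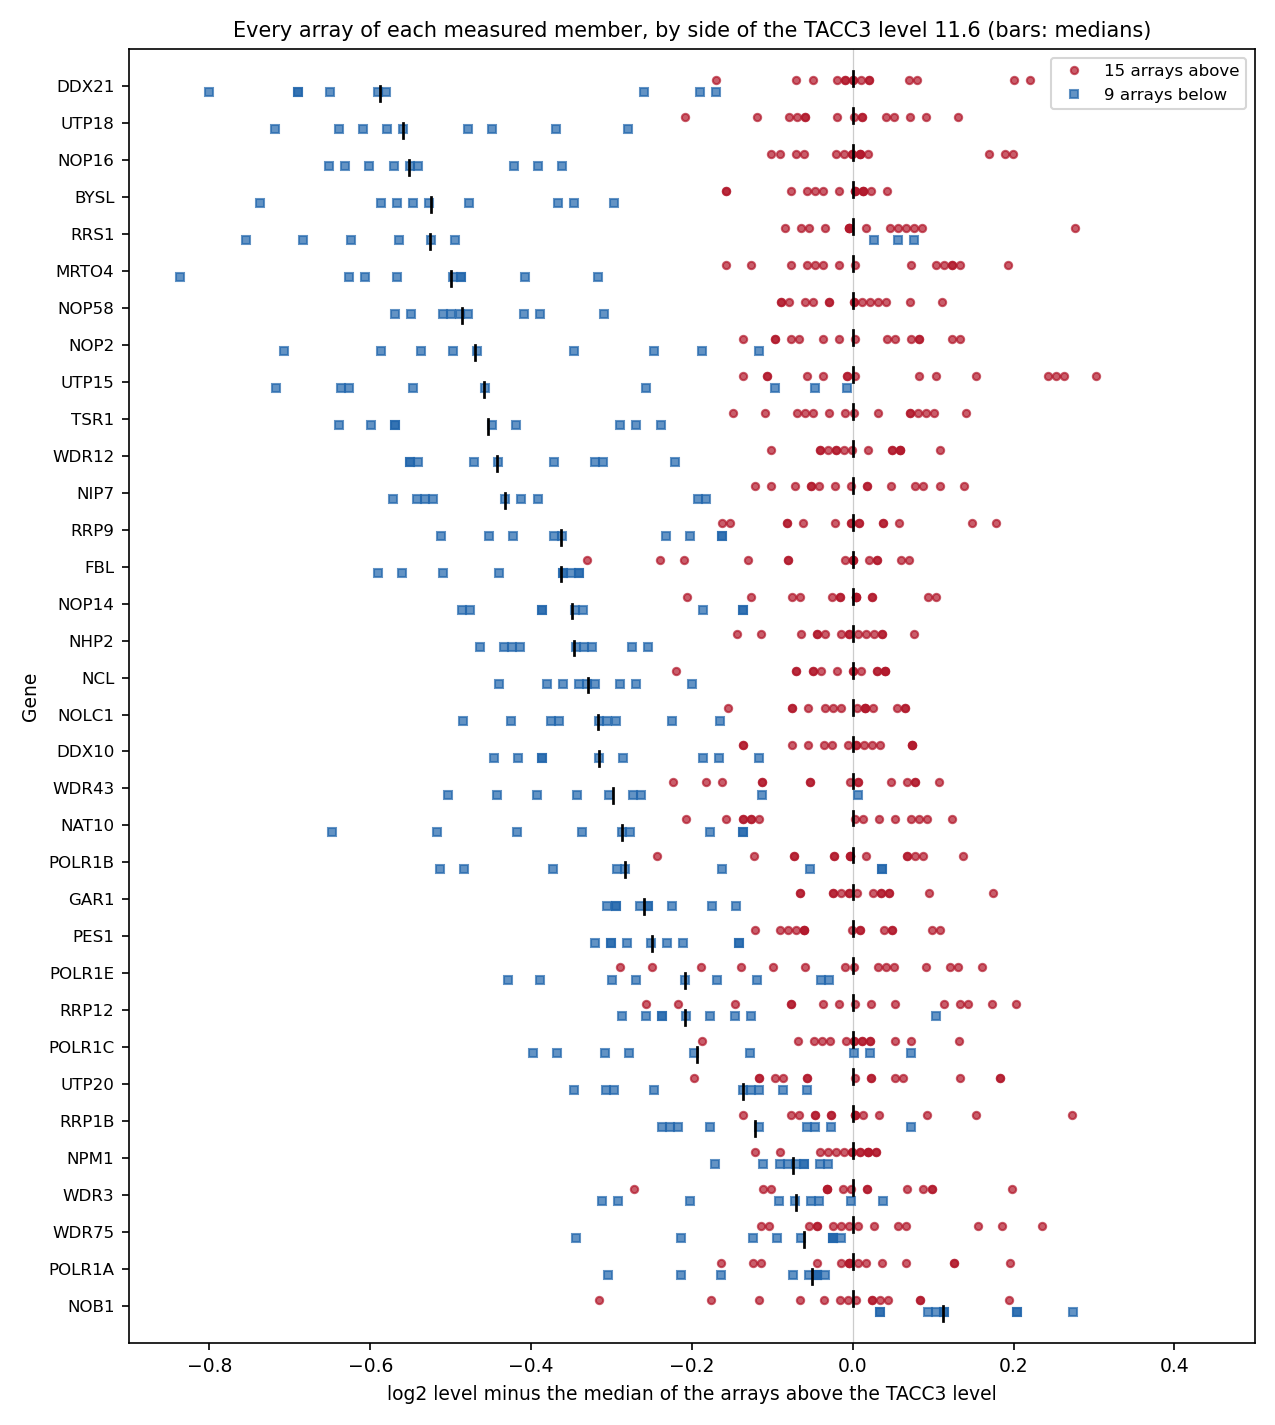
Every array of each of the 34 members as log2 level minus the median of the 15 arrays above the TACC3 level of 11.6, with squares for the 9 arrays below, circles for the 15 above and black bars for medians. The differences run from -0.59 for DDX21 to 0.11 for NOB1, and RRS1 has 3 squares among its circles.

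The 68 probe sets of the members mostly gave the same direction. Of the 34 probe sets not used for the values above, 30 had a difference below 0 and 4 above 0, and 6 separated the sides. By gene, 10602 of all 19775 had a lower median and 3.09% were lower without overlap, while the shares over all probe sets were not computed. Of the 34 probe sets not used, 11 had a mean log2 level under 7.

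The 9 arrays below were not alike. The 3 with the lowest TACC3, 10.49 to 10.79, had a member summary of -0.133 to -0.043, and the other 6, with TACC3 at 11.31 to 11.43, had -0.31 to -0.173. Those 3 arrays also read 4.25 to 4.79 for ARMCX3, an X-linked gene, as did 3 arrays above the level (4.63 to 4.93), while the remaining arrays read 9.45 to 10.31. GAS1, a growth-arrest gene, read 8.52 to 9.47 on 6 arrays, and the brighter FGFR3 probe set read 11.13 to 11.43 on 6 others. Each of these 3 sets of 6 arrays held 3 below and 3 above the TACC3 level, and the sets were noticed in these data. The last is called the FGFR3-low set after the brighter probe set alone. On the dimmer FGFR3 probe set its 3 arrays below read 9.19 to 9.29 and its 3 arrays above 11.03 to 11.20, where the highest of all 24 arrays was 11.20. The remaining 6 arrays, all above, had a member summary of 0.061 to 0.182.

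Within each set most members were lower on the arrays below. The medians of the differences were -0.18 in the ARMCX3-low set, -0.41 in the GAS1-high set and -0.33 in the FGFR3-low set. Every array below was lower than every array above for 23 members in the first, where 14.2% of all genes were, for 27 in the second (19.2% of genes) and for 27 in the third (20.9% of genes). NOB1 was higher without overlap in the ARMCX3-low and GAS1-high sets, as 21.8% and 14.2% of genes were. Over all arrays with high ARMCX3, 6 below and 12 above, 23 members were lower without overlap (8.03% of genes) and 0 were higher (5.8% of genes). In all 3 sets at once 18 of 34 members were lower without overlap, against 6.67% of genes. The sets are parts of the same 24 arrays, and a gene whose sides are apart over all 24 must be apart in each set. The 14 members apart over all arrays are therefore among these 18, and the counts within sets are not separate evidence. NOB1 and the WD-repeat proteins WDR3 and WDR75 of the processome, named for this count, were lower without overlap in none of the 3. A difference of medians below 0 in all 3 sets was found for 29 members, against 21% of genes.

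The size of the difference varied between the sets. For 27 of 34 members it was nearer to 0 in the ARMCX3-low set than in both others. RRS1 there read 10.22, 10.25 and 10.27 below and 10.19, 10.28 and 10.47 above, and in the GAS1-high set 9.44, 9.51 and 9.67 against 10.11, 10.19 and 10.21. The 3 arrays below lay within the range above in the first set and far under it in the second. MRTO4 differed by -0.46, -0.51 and -0.53 and GAR1 by -0.30, -0.29 and -0.26 in the ARMCX3-low, GAS1-high and FGFR3-low sets, values that lie close together. Genes of DNA replication and the G1/S transition went the other way, with 28 of 29 farther from 0 in the ARMCX3-low set (median -1.01) than in the other sets (-0.41 and -0.38). CDC6, a licensing factor, read 7.60, 7.71 and 7.72 against 9.22, 9.37 and 9.40 there. These differences between sets were not tested.

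**Figure D4:**
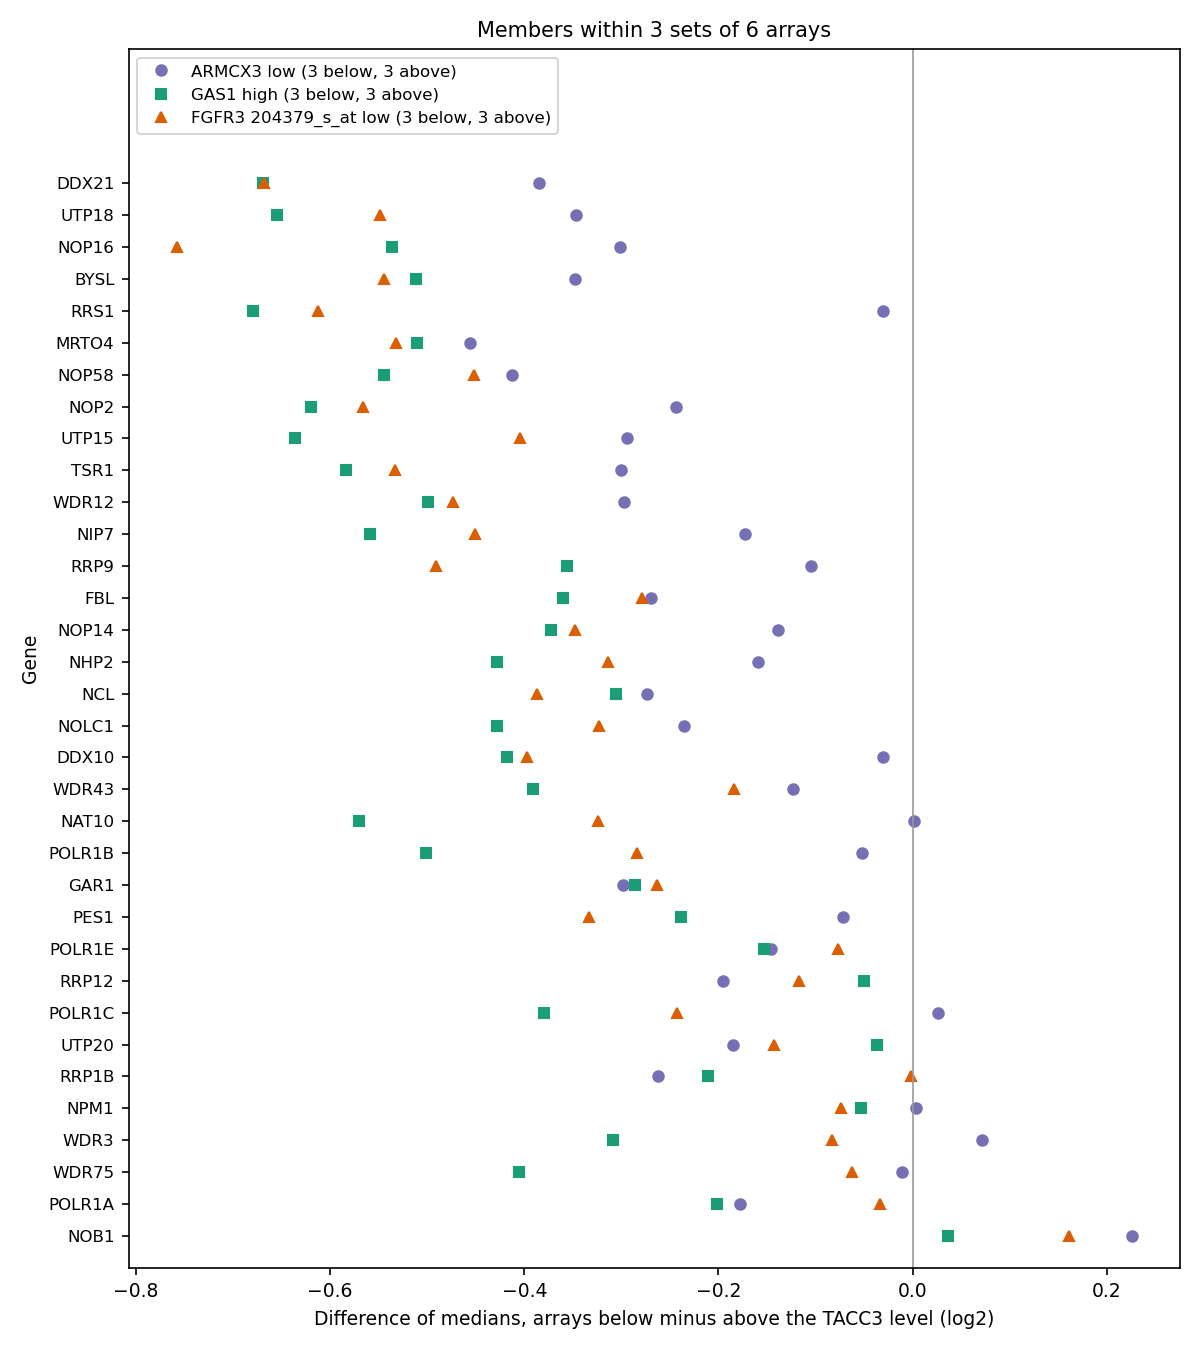
Difference of medians (log2), arrays below minus above the TACC3 level, for each of 34 members within 3 sets of 6 arrays, each with 3 arrays below and 3 above. The circles of the ARMCX3-low set lie nearest to 0 for 27 members, and RRS1 is at -0.03 there against -0.68 and -0.61 in the GAS1-high and FGFR3-low sets.

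Signs of RNA quality moved with the division. The 3' minus 5' signal of GAPDH was 0.28 to 0.42 on the arrays below and 0.20 to 0.29 on those above, and that of ACTB 0.79 to 1.17 and 0.70 to 0.97, and their part in the members' differences was not tested. The 10 epithelial and urothelial markers had a mean log2 level of 12.33 to 12.51 below and 12.43 to 12.60 above. Of these 10, 7 had a lower and 3 a higher median on the arrays below. Without overlap 1 was lower and 2 were higher, against 3.09% and 2.9% of all genes. Their differences ran from -0.77 for KRT5, a basal keratin, to 0.43 among the 10 markers. The 8 fibroblast markers had 8.09 to 8.24 and 8.06 to 8.21, and the 8 leukocyte markers 6.38 to 6.63 and 6.36 to 6.65. Differences of fibroblast markers ran from -0.11 to 0.41 and those of leukocyte markers from -0.08 to 0.08, with 0 in either list free of overlap. The fibroblast gene LUM, which had the 0.41, was bright at 12.84 to 13.56, and the leukocyte gene PTPRC read 5.60 to 5.97. The part of these markers in the members' differences was not tested.

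MYC read 10.60 to 11.08 (median 10.96) on the arrays below and 11.00 to 11.49 (median 11.28) on those above, and the sides overlapped over all arrays. Within each set they did not. In the ARMCX3-low, GAS1-high and FGFR3-low sets 14.2%, 19.2% and 20.9% of all genes were lower without overlap. MYC read 10.60 to 10.82 against 11.00 to 11.13 in the ARMCX3-low set, 11.01 to 11.08 against 11.24 to 11.28 in the GAS1-high set and 10.95 to 11.07 against 11.28 to 11.49 in the FGFR3-low set. Its lowest values, 10.60, 10.74 and 10.82, were on the 3 arrays below of the ARMCX3-low set, where the member summary was nearer to 0 than on the other 6 arrays below. The part of MYC in the members' levels was not tested. Of 11 genes of the MYC network 0 were lower and 1 was higher without overlap, MYCL, which is named for this count. Of all genes 3.09% were lower and 2.9% higher without overlap.

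Genes of the same pathway outside the 40 were examined by lists of function. Of 122 other ribosome biogenesis genes in 6 lists, 108 had a lower median on the arrays below, with a median difference of -0.20. Without overlap 22 were lower and 1 was higher. Of all 19775 genes 10602 had a lower median, and 3.09% were lower and 2.9% higher without overlap. Large-subunit assembly gave 6 of 38 lower without overlap and a median of -0.24, led by PAK1IP1 at -0.56, and the processome 6 of 36 and -0.17, led by NOL6 at -0.47. Assembly factors of the small nucleolar particles gave 3 of 12 and -0.23, led by RUVBL1, an ATPase, at -0.54. The RNA exosome, which trims precursor RNA, gave 5 of 13 and -0.30, led by EXOSC3 at -0.47. Late maturation and export gave 0 of 12 and -0.16, led by LTV1 at -0.53. RNA polymerase I factors outside the members had a median above 0, with 2 of 11 lower, 1 higher and a median of 0.07, although TAF1A, a subunit of the promoter selectivity factor, differed by -0.55.

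Cytosolic ribosomal protein genes, whose products the biogenesis factors assemble, gave 0 of 39 lower and 2 higher without overlap. Of all genes 3.09% were lower and 2.9% higher. The median of these 39 was 0.004, with the largest difference at 0.12 for RPL29. In the ARMCX3-low, GAS1-high and FGFR3-low sets 0, 3 and 2 of them were lower and 16, 5 and 17 higher. Of all genes 14.2%, 19.2% and 20.9% were lower and 21.8%, 14.2% and 24.1% higher there. The median mean level of the cytosolic ribosomal protein genes was 14.13, close to the brightest values on the arrays (14.62 to 14.71). The part of this in the small differences was not tested. The members' median mean level was 9.70. Mitochondrial ribosomal proteins gave 5 of 30 lower and a median of -0.30, led by MRPL12 at -0.70, and DNA replication and G1/S genes gave 20 of 29 and -0.42.

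**Figure D5:**
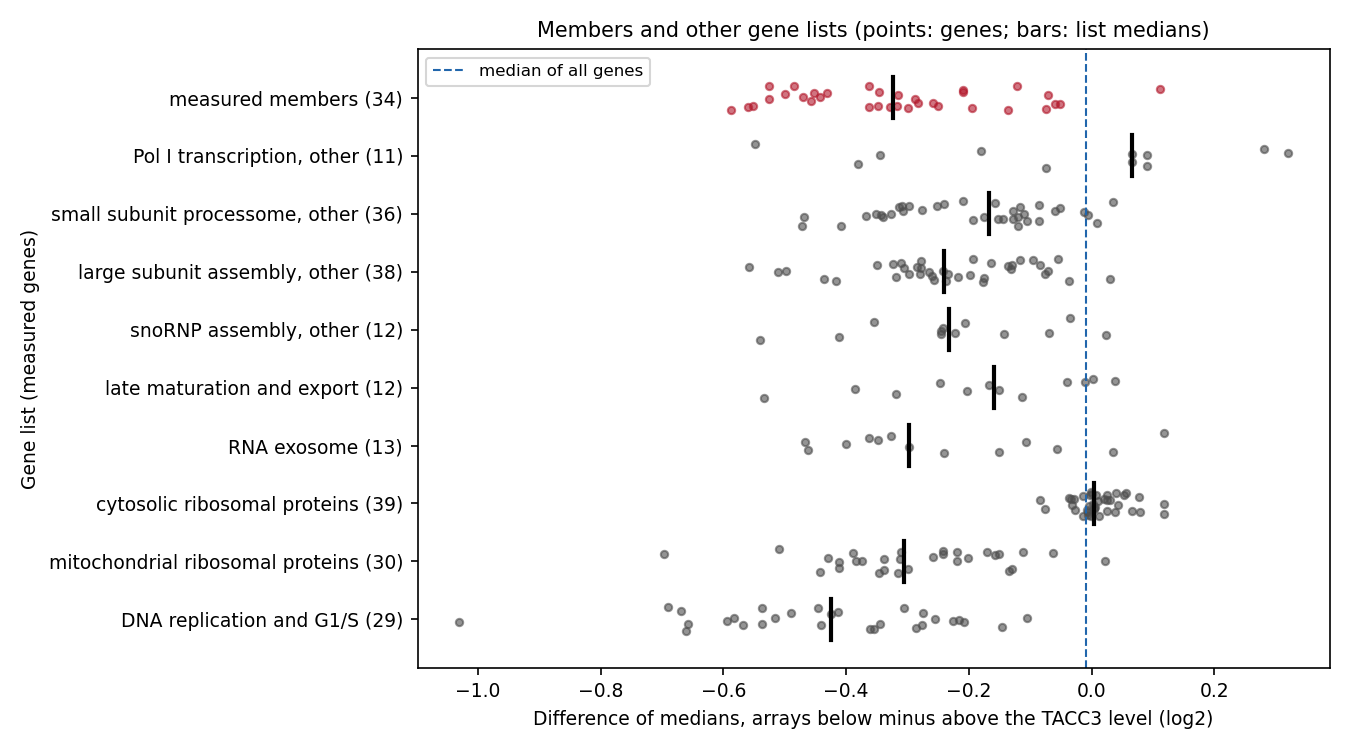
Difference of medians (log2), arrays below minus above the TACC3 level, for the genes of each list (points) with the list median (bars) and the median of all genes (dashed line). The medians of the members (-0.32), the exosome (-0.30) and the G1/S genes (-0.42) lie left of the line, while that of the cytosolic ribosomal proteins is at 0.004.

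The promoters of the members were searched for short motifs, which the arrays do not measure. RefSeq sequences of the build GRCh38.p14, from 250 bases before to 50 after the start of transcription, were given for 32 of the 40 genes in 38 promoters. CACGTG, an E-box that MYC with MAX and several related factors can bind, lay in a promoter of 14 of 32 members (43.8%) and in 36.8% of their 38 promoters, against 7.26% of all 35116 promoters of the same length and 8.36% of those of genes on the arrays. CACGTG reads the same on both strands. Counted by gene, the share was 10.9% for genes on the arrays, 27.3% for the other ribosome biogenesis genes and 7.14% for cytosolic ribosomal proteins. Shown are the matches of the 7 members that hold it and whose sides did not overlap, each with the 12 bases on either side and with the match in capitals.
UTP18, chr17:51260445-51260474, plus strand: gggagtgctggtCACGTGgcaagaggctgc
UTP18, chr17:51260538-51260567, plus strand: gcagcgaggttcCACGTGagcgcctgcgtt
DDX21, chr10:68956604-68956633, plus strand: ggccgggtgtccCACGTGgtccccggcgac
BYSL, chr6:41921515-41921544, plus strand: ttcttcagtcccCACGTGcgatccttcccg
MRTO4, chr1:19251807-19251836, plus strand: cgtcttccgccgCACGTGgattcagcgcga
FBL, chr19:39846356-39846385, minus strand: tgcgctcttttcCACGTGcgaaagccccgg
GAR1, chr4:109815781-109815810, plus strand: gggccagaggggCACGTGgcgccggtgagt
PES1, chr22:30591880-30591909, minus strand: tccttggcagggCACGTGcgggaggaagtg

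In UTP18 one CACGTG begins 89 bases before the start and another at base 5 of the transcript, and in DDX21 it begins 31 bases before one of its annotated starts. In BYSL, MRTO4, FBL, GAR1 and PES1 it lies within the first bases of the transcript. Of the 13 measured members with CACGTG, 7 separated the arrays and the median difference was -0.36, and of the 15 without it, 5 did and the median was -0.32. The medians of members with and without these letters lay close together, while a larger part of those with them separated the arrays. Neither difference was tested.

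CCGGAAG, the core of sites bound by ETS factors such as GABPA, lay on either strand in a promoter of 12 of 32 members (37.5%), in 34.2% of their promoters and in 10.3% of all promoters. By gene it was in 16.6% of genes on the arrays, 44.5% of other ribosome biogenesis genes and 38.1% of cytosolic ribosomal proteins. Of the 11 measured members with it 7 separated the arrays (median -0.36), and of the 17 without it 5 did (median -0.32), which was not tested. The palindrome that NRF1 binds lay on either strand in promoters of 4 members, UTP18, DDX10, NOB1 and DKC1, or 10.5% of the members' promoters, against 1.24% of all. The 250 bases before the start are shown for 2 members with large differences, UTP18, which holds CACGTG and CCGGAAG, and NOP16, which holds CCGGAAG on both strands, overlapping, and no CACGTG. Capitals mark CACGTG and CCGGAAG, the latter also as its reverse complement CTTCCGG.
UTP18, chr17:51260296-51260545, plus strand: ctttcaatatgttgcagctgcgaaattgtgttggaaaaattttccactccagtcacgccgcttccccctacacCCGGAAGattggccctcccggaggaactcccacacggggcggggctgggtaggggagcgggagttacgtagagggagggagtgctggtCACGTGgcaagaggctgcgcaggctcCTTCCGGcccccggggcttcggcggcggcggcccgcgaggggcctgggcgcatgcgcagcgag
NOP16, chr5:176388599-176388848, minus strand: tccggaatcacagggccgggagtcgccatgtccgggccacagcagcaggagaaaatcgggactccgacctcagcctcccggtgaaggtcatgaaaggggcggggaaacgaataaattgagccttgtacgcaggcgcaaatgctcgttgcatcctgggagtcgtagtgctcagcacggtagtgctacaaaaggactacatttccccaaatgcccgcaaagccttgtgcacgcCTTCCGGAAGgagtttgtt

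A match is a stretch of letters and not a measured binding site. NOP58, NOLC1, BOP1, RRS1, RRP1B, RRP12, POLR1E and DDX18 had no entry among these promoters.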

How the data were processed

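The authors deposited log2 expression values of 54675 probe sets on 24 Affymetrix arrays. RMA (background correction, quantile normalization, summary of probes) and the affy package appear, with no version given, in the submitters' processing notes, and quantile normalization removes shifts shared by most genes. Arrays carry no read depth, and their number limits the precision. Array medians ran from 6.98 to 7.08. Probe sets with 1 symbol in GEO's platform annotation (41097) were kept, with symbols checked through Entrez identifiers against RefSeq, and 1801 with several symbols and 11777 with none were not used. The brightest probe set by mean stood for each of 19775 genes.

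Labelled groups were compared with limma (version 3.58.1, R 4.3.3) in 1 model of 8 groups with 16 residual degrees of freedom, with Benjamini-Hochberg adjustment over all genes and a threshold of 0.05. Sides of the TACC3 level were described by medians and overlap, with no test. The members, the lists, the dividing level and the rule for named genes were chosen with earlier results of these data known. That rule names FGFR3, TACC3 and MYC, the 3 largest changes in each contrast, members whose sides do not overlap, the 2 largest differences in each role, and the leading gene of each ribosome biogenesis list. Alternatives were other probe set choices, a filter on genes under a mean level of 6, array centring, array weights, a replicate block, single lines, other dividing levels and leaving out each array. The model was tested on simulated data. Replicate numbers were not taken to pair arrays.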

Additional observations from a re-analysis of the deposited data

How the results depend on the processing

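Of 1501 recomputed values, 1452 stayed within the spread between replicates or on the same side of the test, 40 moved further, and 9 fitted changes of single genes turned their sign, all by leaving out 1 array. In the 6-16 line limma called 1 gene with a replicate block, 1291 with array weights and 1 on that line's arrays alone, against 0. Same-numbered arrays correlated at -0.53 to 0.61, over 0.1 in 9 of 12 pairs, and 8 of 12 arrays without doxycycline correlated best with their own number, which hints at pairs in the data, but 3 pairs were under 0.1 (1 of the EGFP and 2 of the 4-1 line), so no pairing was assumed. The block changed no other count of calls. Leaving out 1 array, the members' median ranged from 0.044 to 0.267 in the EGFP line, -0.267 to -0.031 for the FGFR3 lines minus the EGFP line, -0.09 to 0.121 in the 2-4 line, -0.017 to 0.214 in the 4-1 line and -0.112 to 0.002 in the 6-16 line. In the 2-4 line RRS1 ranged from -0.297 to 0.048, DDX21 from -0.245 to 0.079 and NOP16 from -0.287 to 0.049, and in the 4-1 line DDX21 from -0.045 to 0.408. For the FGFR3 lines minus the EGFP line, FGFR3 ranged from -0.237 to 0.309. With the dividing level 0.2 lower, 7 arrays lay below and 0 members separated the sides (0.212% of all genes). A level 0.2 higher left the same 9 arrays below and 15 above, so its count of 14 could not differ. It was 11 with the mean of probe sets (3.01% of genes), 10 with centred arrays (2.54%) and 14 to 16 without 1 array (3.1% to 3.72%). Within sets of arrays, chosen after seeing the data, it was 23 (ARMCX3-low, median difference -0.182), 23 (ARMCX3-high), 27 (GAS1-high) and 27 (FGFR3-low). Members apart over all arrays must be apart in each set too. The cause was not tested.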
